A study of Mus musculus with 9 samples.

Results

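The transcription factors described here are made or activated at the membrane of the endoplasmic reticulum (ER), and 8 genes were chosen by name: *Creb3*, *Creb3l1*, *Creb3l2*, *Creb3l3* and *Creb3l4* of the CREB3 family, *Xbp1*, and the paralogs *Atf6* and *Atf6b*. The unfiltered table holds 48709 genes, these 8 among them. The 17562 rows of the normalised table hold 7 of the 8, all but *Creb3l3*, and the same 7 were among the 13842 genes that passed the filter on low counts. RNA came from the submandibular gland (SMG) of 9 male mice, 4 wildtype (WT) and 5 double knockouts (DKO) of *Hs3st3a1* and *Hs3st3b1*, with 1 library per gland. Both genes encode 3-O-sulfotransferases that modify heparan sulfate. Per the study's methods the strains were on a C57BL/6 background, *Hs3st3b1* carried a LacZ cassette, *Hs3st3a1* carried a small frameshift deletion in its first exon made by zinc finger nucleases, and the glands were adult. The labels give no age, no treatment, and no founder line, and both losses are in every cell of the animal. The genes were proposed with the DKO against WT contrast of these libraries in view, so their values in that contrast are given as a description and without a test.

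A secretory cell folds its cargo in the ER, and these factors tie transcription to that load. The CREB3 proteins and both ATF6 proteins are inserted in the ER membrane as precursors. They travel to the Golgi, where the site-1 and site-2 proteases cut them and free a DNA-binding part that enters the nucleus. *Xbp1* works differently: the sensor IRE1 in the ER membrane splices its mRNA, the ligase RTCB rejoins it, and the spliced form is translated into the active factor. XBP1 is known for driving secretory capacity in plasma cells and in exocrine acini, ATF6 for chaperone genes, CREB3L1 and CREB3L2 for collagen-secreting cells and for COPII transport, CREB3L3 for liver and gut, and CREB3L4 for prostate and testis. Read counts per gene show neither proteolysis nor *Xbp1* splicing.

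RefSeq promoter windows (GRCm38.p6, from 250 bases before to 50 after an annotated start) were found for 6 of the 8 genes, with 9 windows in all. No window was found for *Creb3l1* or *Atf6*. Motifs known from the promoters that these factors bind were searched on both strands. They were the core ACGTG of the unfolded protein response element, its longer form TGACGTG and the short site CCACG bound by ATF6 and XBP1. The ER stress element, in which CCAAT is followed after 9 bases by that short site, was searched too. The cyclic AMP response element was not searched. The core is part of the longer form, and the core and the short site can share bases. Of 32851 windows, 19.6% held the core, 2.01% the longer form, 32.8% the short site and 0.119% the ER stress element. The windows shown are those of *Creb3l4* and *Xbp1*, the genes that the results turn on, and those of *Creb3* and *Atf6b*, the measured members whose windows held the core. Each is written on the strand of its gene, 5′ to 3′, with every motif match in capitals.
Creb3l4: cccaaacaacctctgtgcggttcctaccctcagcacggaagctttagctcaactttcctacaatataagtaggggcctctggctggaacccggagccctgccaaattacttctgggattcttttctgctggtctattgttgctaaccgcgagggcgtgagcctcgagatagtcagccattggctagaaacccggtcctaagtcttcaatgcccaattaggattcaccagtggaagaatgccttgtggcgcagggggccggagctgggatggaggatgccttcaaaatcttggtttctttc
Xbp1: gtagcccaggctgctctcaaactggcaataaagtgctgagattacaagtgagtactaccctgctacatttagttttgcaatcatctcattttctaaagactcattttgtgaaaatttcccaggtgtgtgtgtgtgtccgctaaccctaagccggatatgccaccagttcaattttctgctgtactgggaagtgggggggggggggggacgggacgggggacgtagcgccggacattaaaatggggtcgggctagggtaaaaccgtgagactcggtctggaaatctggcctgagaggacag
Creb3: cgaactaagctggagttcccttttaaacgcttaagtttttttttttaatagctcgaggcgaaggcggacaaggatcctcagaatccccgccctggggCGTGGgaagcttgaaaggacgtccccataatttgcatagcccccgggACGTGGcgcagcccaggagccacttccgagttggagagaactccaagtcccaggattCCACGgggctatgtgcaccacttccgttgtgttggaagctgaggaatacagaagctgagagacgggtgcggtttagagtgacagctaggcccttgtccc
Atf6b: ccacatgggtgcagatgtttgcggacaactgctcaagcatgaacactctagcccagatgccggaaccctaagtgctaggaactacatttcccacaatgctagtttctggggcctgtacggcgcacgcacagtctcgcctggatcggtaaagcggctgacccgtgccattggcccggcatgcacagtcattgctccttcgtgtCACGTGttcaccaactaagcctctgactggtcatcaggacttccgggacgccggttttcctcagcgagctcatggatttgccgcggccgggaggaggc

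The *Creb3l4* window is chr3:90243463-90243762 on the minus strand and spans the GENCODE M21 start of the gene. It held 0 matches, as did the *Xbp1* window at chr11:5520391-5520690 on the plus strand. Each of the other 2 *Creb3l4* windows, which lie inside the GENCODE gene, held 1 short site. The *Creb3* window at chr4:43562408-43562707 on the plus strand held 1 core and 3 short sites. It too lies inside the GENCODE gene and does not span its start. The *Atf6b* window at chr17:34646896-34647195 on the plus strand held the core on both strands, in the palindrome CACGTG. Of the 2 windows of *Creb3l3*, which was barely detected and is not shown, the one at chr10:81092542-81092841 on the minus strand held 1 core and 2 short sites. That window lies inside the GENCODE gene. The other *Creb3l3* window, which spans the GENCODE start, held 0 matches, as did the *Creb3l2* window. The longer form and the ER stress element were in 0 of the 9 windows. A match is a string of letters and not a bound site, and a missing match says only that the letters are not in the window.

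Total counts were 20653492 to 37870519 in WT and 17053747 to 34683690 in DKO. *Hs3st3a1* had 3 to 14 counts in WT and 0 in each DKO library, and *Hs3st3b1* had 2.99 to 5.37 CPM in WT and 0.508 to 1.85 CPM in DKO, where CPM are counts scaled to the library size after TMM normalisation. Summed over 7 acinar markers, the WT libraries held 197794 to 294615 CPM and the DKO libraries 307587 to 546937 CPM. The sum of 6 granular duct markers was 35445 to 86897 CPM in WT and 5051 to 28095 CPM in DKO. The sum of 7 myoepithelial markers was 617 to 997 CPM in WT and 237 to 557 CPM in DKO. The groups did not overlap for any of these 3 sums. *Mucl2*, *Car6* and *Pip* made up most of the acinar sum. DKO replicate 1 stood apart by its parotid genes, with 7431 CPM of *Bpifa2* against 4.42 to 79.1 CPM in the other libraries. Of 6 plasma cell markers, which matter because plasma cells depend on *Xbp1*, the antibody genes *Jchain*, *Igkc* and *Igha* took the sum to between 48.2 and 781 CPM with no separation by genotype, while *Mzb1* stayed under 1 CPM in all libraries. In bulk tissue, fewer cells of a type and less RNA per cell cannot be told apart.

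*Creb3l4* (ENSMUSG00000027938, chr3:90237500-90243512, minus strand, GRCm38) was the family member with the widest gap between genotypes. Its counts ran from 167 to 826 per library. In WT it measured 7.95, 12.6, 7.98 and 7.17 CPM in replicates 1 to 4. In DKO it measured 24.2, 21.7, 29.1, 14.4 and 25.9 CPM in replicates 1 to 5. Every DKO library lay above every WT library, with WT replicate 2 and DKO replicate 4 nearest to each other. The means were 8.92 ± 2.47 CPM (SD, n = 4) in WT and 23.1 ± 5.54 CPM (SD, n = 5) in DKO. The fitted log2 fold change was 1.37 with a standard error (SE) of 0.22, or 2.58-fold, and 0.657% of all tested genes had a larger one. Without DKO replicate 1, the library with parotid genes, it was 1.35.

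*Creb3l1* (ENSMUSG00000027230, chr2:91982328-92024502, minus strand), known from bone and other matrix-secreting cells, came next. It measured 18.8, 30.9, 16.0 and 27.2 CPM in WT, and 29.0, 32.3, 50.7, 39.9 and 47.4 CPM in DKO. DKO replicate 1 fell within the WT range and the other 4 DKO libraries lay above it. The log2 fold change was 0.78 (SE 0.22), from 23.2 ± 7.0 CPM (SD, n = 4) to 39.9 ± 9.33 CPM (SD, n = 5).

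*Creb3l2* (ENSMUSG00000038648, chr6:37327255-37442146, minus strand), which supports the COPII coat genes in cartilage, measured 18.2, 25.7, 24.0 and 30.0 CPM in WT. In DKO it measured 36.9, 32.8, 35.0, 27.9 and 38.3 CPM. Only DKO replicate 4 lay within the WT range. The log2 fold change was 0.48 (SE 0.15).

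*Creb3* (ENSMUSG00000028466, chr4:43562332-43567060, plus strand), the founding member of the family, measured 31.2, 30.9, 34.4 and 35.0 CPM in WT. The DKO values were 36.8, 31.1, 55.7, 33.1 and 41.8 CPM, of which replicates 2 and 4 were inside the WT range. The log2 fold change was 0.27 (SE 0.16), and it was 0.12 without DKO replicate 3. With library totals in place of TMM factors it was -0.05, on a scale where the median of all tested genes was -0.28. *Creb3* shares 360 exon bases with *Tln1* and 133 with *Gba2* on the other strand, out of 2372, and the libraries were unstranded, so reads from these stretches cannot be told apart. *Tln1* measured 16.7 ± 2.82 CPM (SD, n = 4) in WT and 14.5 ± 2.07 CPM (SD, n = 5) in DKO.

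*Creb3l3* (ENSMUSG00000035041, chr10:81084324-81098874, minus strand), the member known from liver and gut, had 2, 2, 2 and 0 counts in WT. It had 1, 2, 0, 3 and 0 counts in DKO. Both groups were at or under the floor of 3 counts in each library, so no fold is given, and a level below that floor could not be detected at this depth.

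**Figure D1:**
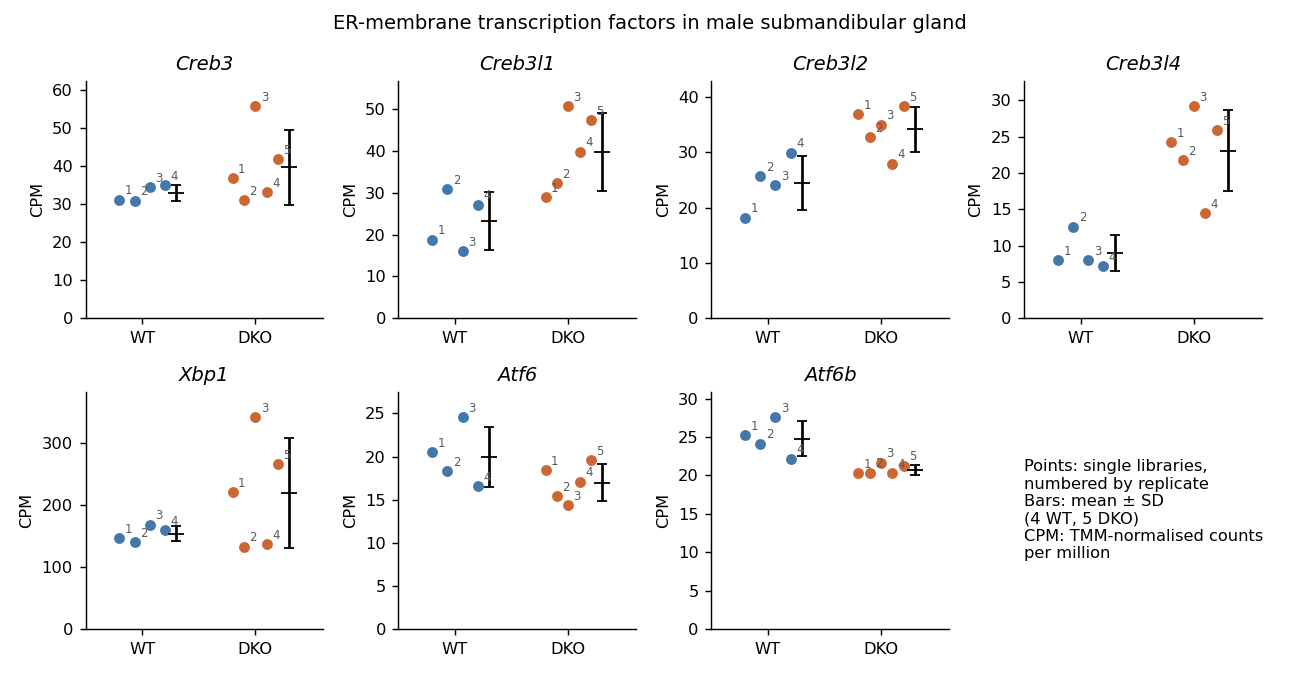
CPM (TMM-normalised, linear axes from 0) of the 7 members past the filter, in 4 WT and 5 DKO libraries numbered by replicate, with mean and SD at the side. *Creb3l4* runs from 7.17 to 12.6 CPM in WT and from 14.4 to 29.1 CPM in DKO, *Xbp1* spreads from 133 to 342 CPM within DKO, and the 5 DKO values of *Atf6b* lie between 20.3 and 21.7 CPM.

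*Xbp1* (ENSMUSG00000020484, chr11:5520659-5525893, plus strand) was the most abundant member, and its DKO libraries were split. In WT it measured 147, 140, 168 and 160 CPM, a narrow range with a coefficient of variation of 8.13%. In DKO it measured 221, 133, 342, 137 and 266 CPM, a coefficient of variation of 40.4%. Replicates 1, 3 and 5 of DKO lay above all WT libraries, and replicates 2 and 4 lay below all of them. The log2 fold change of 0.52 (SE 0.25) averages over that split. Without DKO replicate 3 it was 0.30, and with library totals in place of TMM factors 0.17. The TMM factors of the 3 high libraries were 0.986, 0.774 and 0.809, and those of the 2 low ones 0.912 and 1.11.

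*Atf6* and *Atf6b* were the members with lower values in DKO. *Atf6* (ENSMUSG00000026663, chr1:170704674-170867771, minus strand), the strong activator of chaperone genes, measured 20.5, 18.3, 24.6 and 16.5 CPM in WT, and 18.4, 15.4, 14.3, 17.1 and 19.6 CPM in DKO. The groups overlapped, and the log2 fold change was -0.24 (SE 0.14). *Atf6b* (ENSMUSG00000015461, chr17:34647146-34655074, plus strand), known as a weaker activator, measured 25.2, 24.1, 27.6 and 22.2 CPM in WT. Its DKO values were 20.3, 20.4, 21.7, 20.3 and 21.3 CPM, all under the lowest WT library. The difference was small, at a log2 fold change of -0.26 (SE 0.09).

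Counted together, 2 of the 7 measured members had groups that did not overlap, *Creb3l4* above and *Atf6b* below, where 6.00% of all tested genes had such groups, 2.49% higher and 3.51% lower. These counts come from the contrast with which the genes were chosen, and nothing is read from them.

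**Figure D2:**
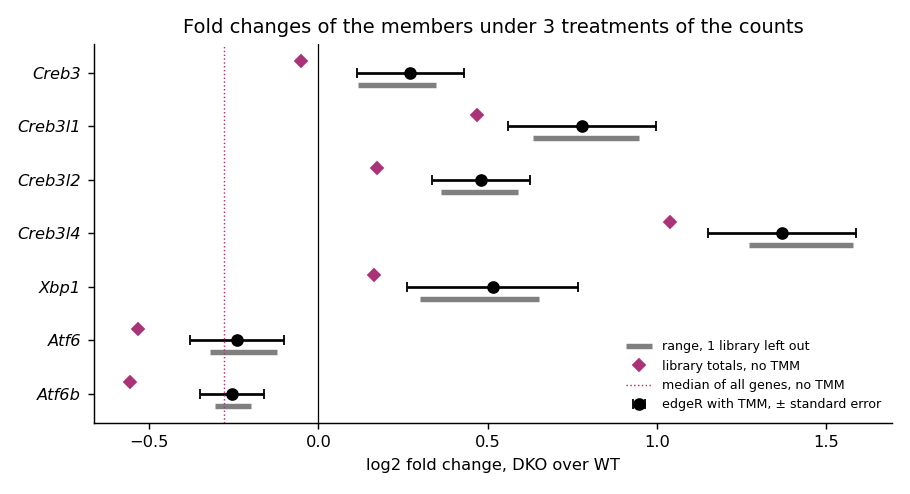
Log2 fold change of DKO over WT (horizontal axis) for the 7 measured members: circles with standard error from the edgeR fit with TMM, grey bars for the range with 1 library left out, and diamonds for library totals without TMM, where the dotted line marks the median of all tested genes at -0.28. *Creb3l4* stays between 1.27 and 1.58 with 1 library left out and is 1.04 without TMM, while *Creb3* passes 0 to -0.05 without TMM.

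Per kilobase of exon, which allows levels to be compared between genes, *Xbp1* led in WT with 47.3 ± 3.84 CPM per kb (SD, n = 4). *Creb3* followed with 13.9 ± 0.903 CPM per kb. *Atf6b* at 8.99 ± 0.818 and *Creb3l1* at 8.93 ± 2.69 CPM per kb held the next ranks, and *Atf6b* was the higher one in 2 of the 4 WT libraries, so this pair did not differ beyond its spread. *Creb3l4* came after them with 5.31 ± 1.47, ahead of *Creb3l2* with 3.36 ± 0.668 and *Atf6* with 2.17 ± 0.376 CPM per kb. All other neighbours in that order kept it in 4 of 4 WT libraries. *Creb3l3* was last at 0.0174 CPM per kb.

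In DKO the order of the means changed in the middle. *Creb3l1* moved up with 15.3 ± 3.59 CPM per kb (SD, n = 5) and *Creb3l4* with 13.7 ± 3.30, both near *Creb3* at 16.7 ± 4.14, and *Atf6b* was below them at 7.53 ± 0.237. Among the 4 detected CREB3 genes, *Creb3l4* took 16.8% ± 3.34 of the summed CPM per kb in WT (SD, n = 4) and 27.2% ± 4.15 (SD, n = 5) in DKO. The groups overlapped in this share, with WT replicate 2 at 20.9% and DKO replicate 4 at 20.6%. The share of *Creb3* was 44.6% ± 6.20 in WT and 33.0% ± 2.20 in DKO. The shares of *Creb3l1*, 28.0% ± 5.24 and 30.4% ± 4.61, and of *Creb3l2*, 10.7% ± 1.47 and 9.47% ± 1.39, differed by less than their SDs.

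**Figure D3:**
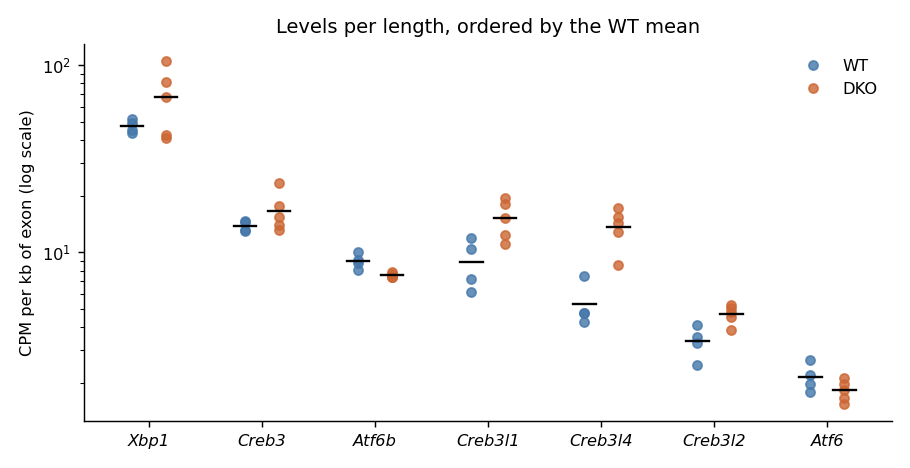
CPM per kb of exon (log axis) in each WT and DKO library for the 7 measured members in the order of their WT means, with black lines at the group means. *Xbp1* is highest and *Atf6* lowest in both groups, and *Creb3l4* moves from 5.31 CPM per kb in WT to 13.7 in DKO, next to *Creb3l1*.

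Within a library, *Creb3l4* was set against each relative as a ratio of CPM per kb. It reached 0.388 ± 0.128 of *Creb3* in WT (SD, n = 4) and 0.83 ± 0.151 (SD, n = 5) in DKO, with no overlap between groups. Against *Creb3l2*, *Atf6* and *Atf6b* the DKO ratios were likewise all above the WT ratios, at 1.62 and 2.90, 2.52 and 7.62, and 0.595 and 1.82 as WT and DKO means. Against *Creb3l1* the groups overlapped, from 0.408 to 0.773 in WT and from 0.560 to 1.29 in DKO. Against *Xbp1* they overlapped too, from 0.0868 to 0.173 in WT and from 0.165 to 0.317 in DKO. A ratio within a library does not depend on how the libraries were scaled. All these ratios hold the *Creb3l4* values whose groups already did not overlap. *Atf6b* itself was lower in DKO without overlap, so its ratio could not overlap. The ratios are a description, and nothing is read from their separation.

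The marker sums moved with *Creb3l4* in some libraries and not in others. WT replicate 2, the WT library with the most *Creb3l4*, had the highest acinar sum of WT at 294615 CPM and the lowest granular duct sum of WT at 35445 CPM. DKO replicate 4, the DKO library with the least *Creb3l4*, had the lowest acinar sum of DKO at 307587 CPM and the highest granular duct sum of DKO at 28095 CPM. DKO replicate 3 had the most *Creb3l4*, the highest acinar sum and the lowest granular duct sum of all 9. Against that order, WT replicate 4 had the least *Creb3l4* and the second highest acinar sum of WT, 265664 CPM. DKO replicate 1 had more *Creb3l4* than DKO replicate 2 and a lower acinar sum, 333529 against 423815 CPM.

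All 6 tested acinar markers had higher values in DKO, with log2 fold changes from 0.38 to 1.03, and edgeR called 0 of them at a p under 0.05 adjusted over all genes by Benjamini-Hochberg, where it called 0.629% of all tested genes, 0.166% higher and 0.462% lower. That share stands for 87 genes, and with 1 library left out the number ran from 0 to 441. At an unadjusted p under 0.05, 4 of the acinar markers passed, where 6.89% of all tested genes were higher. DESeq2 called 3, where it called 4.35% of its genes, 1.74% higher and 2.61% lower. All 6 granular duct markers had lower values, of which edgeR called 0, 5 passed at an unadjusted p under 0.05, where 7.60% of all tested genes were lower, and DESeq2 called 5. Of 6 tested myoepithelial markers, all with lower values, edgeR called 3, against 0.462% of all tested genes, and DESeq2 called 6, against 2.61%. Over the 9 libraries with the genotype means removed, the acinar sum had a Pearson r of 0.72 with *Creb3l4* and 0.79 with *Creb3l1*, and the granular duct sum had -0.70 and -0.63. Without the 2 libraries farthest from the median of the acinar sum, the r with that sum was 0.48 for *Creb3l4* and 0.94 for *Creb3l1*. Without the 2 farthest from the median of the granular duct sum, the r with that sum was -0.37 and -0.24. Both sides of each r share the library, its depth and its TMM factor, so these values are a description. The part of the cell makeup in the *Creb3l4* difference was not tested.

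*Creb3l4* was also set against single acinar genes. As a share of *Bhlha15*, the acinar transcription factor MIST1, its CPM was 4.77% ± 1.65 (SD, n = 4) in WT and 9.03% ± 2.5 (SD, n = 5) in DKO, with the lowest DKO library at 6.62% and the highest WT library at 6.26%. As a share of *Aqp5*, the acinar water channel, it was 3.51% ± 1.16 and 6.52% ± 2.16, and DKO replicate 4 at 4.07% lay within the WT range. As a share of *Lpo*, the secreted lactoperoxidase, it was 1.45% ± 0.418 and 2.35% ± 0.635, and 3 of the 5 DKO libraries lay within the WT range of 1.07 to 1.98%. *Xbp1* was 60.1% ± 12.2 of *Aqp5* in WT and 59.9% ± 21 in DKO.

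**Figure D4:**
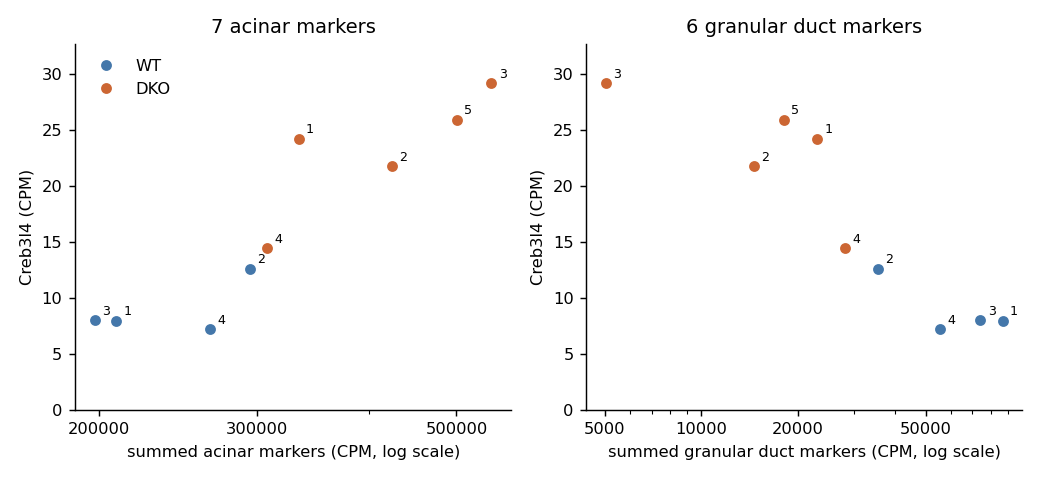
*Creb3l4* in CPM against the summed CPM of 7 acinar markers (left) and of 6 granular duct markers (right), both on log horizontal axes, for 4 WT and 5 DKO libraries numbered by replicate. WT replicate 2 and DKO replicate 4 lie next to each other in both panels, and DKO replicate 3 lies at the far end of both.

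The members were also compared with each other across libraries. With the genotype means removed, *Creb3* and *Xbp1* had the highest Pearson r of the 21 pairs, 0.94 over 9 libraries (Spearman rho 0.92), and 0.88 without the 2 libraries farthest from the *Creb3* median. *Creb3l4* had 0.56 with *Xbp1*, 0.44 with *Creb3*, 0.42 with *Creb3l2* and 0.39 with *Creb3l1*. Next, 2 libraries were left out for each of these pairs, those farthest from the median of *Creb3l4*, *Creb3*, *Creb3l2* and *Creb3l1* in turn. The values were then 0.64, 0.29, -0.22 and 0.54. The sign of *Creb3l4* with *Creb3l2* thus rested on the 2 libraries left out for that pair. *Atf6* and *Atf6b* had 0.64, and had -0.08 without the 2 libraries farthest from the *Atf6* median. The lowest value was that of *Creb3l1* with *Atf6*, -0.58, and was -0.23 without the 2 libraries farthest from the *Creb3l1* median. The 9 points share the library, its depth and its scaling factor, and these values are a description.

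Over all 9 libraries, the 5 tested genes whose log2 CPM was most like that of *Creb3l4* were *Snph* (Pearson r 0.984), *Ceacam10* (0.983), *Psat1* (0.972), *Slc1a5* (0.960) and *2810030D12Rik* (0.959). *Snph*, for syntaphilin, which anchors mitochondria in axons, was scarce, from 0.179 to 0.650 CPM in WT and from 0.712 to 3.21 CPM in DKO. *Psat1*, an enzyme of serine synthesis, measured 10.9, 20.6, 15.1 and 10.3 CPM in WT and 48.8, 47.5, 73.8, 17.9 and 71.6 CPM in DKO. As with *Creb3l4*, its highest WT library was replicate 2 and its lowest DKO library replicate 4. *Psat1* was picked for its likeness to *Creb3l4* over these libraries, so nothing is read from that match. *Slc1a5*, a glutamine carrier, measured 27.9 ± 3.58 CPM (SD, n = 4) in WT and 40.9 ± 5.89 CPM (SD, n = 5) in DKO. With the genotype means removed, the 5 most alike were *Rad52* (0.964), *Foxp4* (0.952), *Pacsin3* (0.942), *Gars* (0.942) and *Htatip2* (0.939). *Gars*, the glycyl-tRNA synthetase, measured 41.3 ± 8.04 CPM in WT and 61.4 ± 14.5 CPM in DKO. In that second measure *Snph*, *Ceacam10* and *Psat1*, picked by the first, had an r of 0.939, 0.929 and 0.936. Both measures use the same 9 libraries, so the second is no separate check on the first.

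The genes next to the members were read as well. *Creb3l4* lies between *Jtb* and *Slc39a1*, a zinc transporter. *Jtb* had a log2 fold change of 0.35 (SE 0.15, adjusted p = 0.296, quasi-likelihood test of edgeR). *Slc39a1* had 0.21 (SE 0.13, adjusted p = 0.521, same edgeR test). Of the 16 nearest protein-coding genes, 15 were tested and edgeR called 1: *Tpm2*, a smooth muscle tropomyosin 38566 bases from *Creb3*, fell by 1.09 on the log2 scale (SE 0.14, adjusted p = 0.0312 by edgeR). The share over all tested genes was 0.629%. DESeq2 called 3 of these neighbours, against 4.35% of all its genes: *Tpm2* and the diacylglycerol kinase genes *Dgkz*, next to *Creb3l1*, and *Dgki*, next to *Creb3l2*. The edgeR log2 fold change of *Dgkz* was 0.57 (SE 0.17, adjusted p = 0.142 by edgeR and 0.0498 by DESeq2). That of *Dgki* was 2.47 (SE 0.64, adjusted p = 0.0862 by edgeR and 0.00121 by DESeq2), and DKO replicate 4 lay inside the WT range for both genes.

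The machinery that activates these factors was measured in 8 of 9 listed genes. None passed the edgeR test in either direction, 0 had an unadjusted p under 0.05, and DESeq2 called 0. Over all tested genes edgeR called 0.629%, 14.5% had an unadjusted p under 0.05, and DESeq2 called 4.35% of its genes. The same shares stand beside the counts of each list below. The median log2 fold change was 0.06, beside 0.01 for all tested genes. *Mbtps1*, the site-1 protease that cuts ATF6 and CREB3 proteins, measured 43.6 ± 1.21 CPM (SD, n = 4) in WT and 40.7 ± 2.49 CPM (SD, n = 5) in DKO. *Rtcb*, the ligase of *Xbp1* mRNA, measured 146 ± 11.4 and 154 ± 15.5 CPM. *Eif2ak3*, which encodes the ER stress kinase PERK, had the largest log2 fold change, 0.31 (SE 0.15, adjusted p = 0.391 by edgeR). *Nfyc*, a subunit of the factor that binds CCAAT, had 0.12. *Ern2*, the IRE1 paralog of mucous epithelia, had 0 counts in all 9 libraries, while *Ern1* measured 7.95 to 9.57 CPM.

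The ER chaperone and degradation genes known as targets of ATF6 or XBP1 were, by contrast, mostly lower in DKO. All 22 were tested, 19 with a negative and 3 with a positive log2 fold change, and the median was -0.43. EdgeR called 0 of them, with a lowest adjusted p of 0.0891 by edgeR, where it called 0.462% of all tested genes lower and 0.166% higher. At an unadjusted p under 0.05, 11 were lower and 0 higher, where 7.60% of all tested genes were lower and 6.89% higher. DESeq2 called 3, all lower, where it called 2.61% of its genes lower. The groups overlapped for all 22, where 3.51% of all tested genes were lower without overlap and 2.49% higher. Without WT replicate 2, whose summed level of 4367 CPM was the lowest of WT, edgeR called 6, all lower. That fit called 306 of all 14149 tested genes, 228 of them lower. With any other library left out, 0 of the list were called. The granular duct and myoepithelial sums were lower in DKO as well. In WT that duct sum was 86897, 35445, 74127 and 55442 CPM in replicates 1 to 4. The chaperone sum was 6349, 4367, 7102 and 5203 CPM, and replicate 2 was lowest in both. In DKO the duct sum was 22933, 14631, 5051, 28095 and 18094 CPM in replicates 1 to 5. The chaperone sum there was 4426, 4096, 5180, 4162 and 6311 CPM. The DKO libraries did not have the same order in both sums. The part of the cell makeup in the lower chaperone values was not tested.

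The 3 that DESeq2 called are central chaperones. *Hspa5*, for the chaperone BiP, measured 1531, 682, 1233 and 1003 CPM in WT and 636, 582, 738, 715 and 770 CPM in DKO. WT replicate 2 lay inside the DKO range and the other 3 WT libraries above it. The 4 WT libraries had the same order in *Hspa5* as in the granular duct sum, and the 5 DKO libraries did not. The log2 fold change was -0.69 (SE 0.21, adjusted p = 0.138 by edgeR and 0.0231 by DESeq2). *Hsp90b1*, for GRP94, had -0.80 (SE 0.21, adjusted p = 0.0891 by edgeR and 0.00773 by DESeq2). *Pdia4*, a disulfide isomerase, had -0.87 (SE 0.23, adjusted p = 0.0923 by edgeR and 0.0105 by DESeq2). *Creld2* had -0.80 (SE 0.26, adjusted p = 0.168 by edgeR).

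The 3 positive values were those of *Herpud1*, *Syvn1* and *Derl3*, and the other degradation genes of the list were lower. *Herpud1*, which assembles the ER degradation complex and was among the most abundant of the list, measured 804, 1170, 1510 and 981 CPM in WT and 1379, 1292, 1595, 845 and 2479 CPM in DKO. The groups overlapped widely, at a log2 fold change of 0.44 (SE 0.28, adjusted p = 0.536 by edgeR). *Syvn1*, the ligase HRD1, had 0.32 and *Derl3* had 0.30. Among the other degradation genes, *Sel1l* had -0.45, *Edem2* -0.42, *Edem1* -0.26, *Derl1* -0.20 and *Derl2* -0.04. These genes other than *Herpud1* are named after their values were seen. *Hspa5* was 7.23 ± 2.37 times *Xbp1* by CPM in WT (SD, n = 4) and 3.51 ± 1.25 times in DKO (SD, n = 5), with DKO replicates 2 and 4, the libraries low in *Xbp1*, at 4.39 and 5.22 and the lowest WT library at 4.86.

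For the genes of ER entry, 19 of 19 were tested, 12 positive and 7 negative, with a median log2 fold change of 0.07. EdgeR called 0, DESeq2 called 0, and 2 were higher at an unadjusted p under 0.05, where 6.89% of all tested genes were higher. *Serp1*, a stabiliser of the translocon, measured 740 ± 68.6 CPM (SD, n = 4) in WT and 992 ± 247 CPM (SD, n = 5) in DKO, a log2 fold change of 0.42 (SE 0.18, adjusted p = 0.302 by edgeR). *Sec11c*, a signal peptidase subunit, had 0.28 (SE 0.12, adjusted p = 0.325 by edgeR). *Ostc* had -0.31 (SE 0.19), and *Srpr*, the signal recognition particle receptor, had 0.18 (SE 0.14). *Ssr1*, of the translocon-associated complex, fell into separate levels that did not follow genotype: 156, 146 and 194 CPM in WT replicate 2 and DKO replicates 2 and 4, and 1015 to 2000.2 CPM in the other 6 libraries.

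The COPII genes, which carry cargo out of the ER and are known to respond to CREB3L1 and CREB3L2, were tested in 14 of 14, with 9 positive and 5 negative and a median of 0.09. EdgeR and DESeq2 called 0, and 1 was higher at an unadjusted p under 0.05, where 6.89% of all tested genes were higher. That gene was *Sec16b*, a scaffold of ER exit sites, at 0.983 ± 0.335 CPM (SD, n = 4) in WT and 1.73 ± 0.288 CPM (SD, n = 5) in DKO. Every DKO library lay above every WT library, as for 2.49% of all tested genes. The log2 fold change was 0.79 (SE 0.27, adjusted p = 0.196 by edgeR). Its larger paralog *Sec16a* measured 19.1 ± 0.869 and 23.4 ± 4.84 CPM, and the cargo adaptor *Sec24a* 12.0 ± 2.48 and 15.2 ± 2.71 CPM. The abundant coat genes *Sar1b*, *Sec13* and *Sec31a* had log2 fold changes of -0.07, 0.14 and 0.10.

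**Figure D5:**
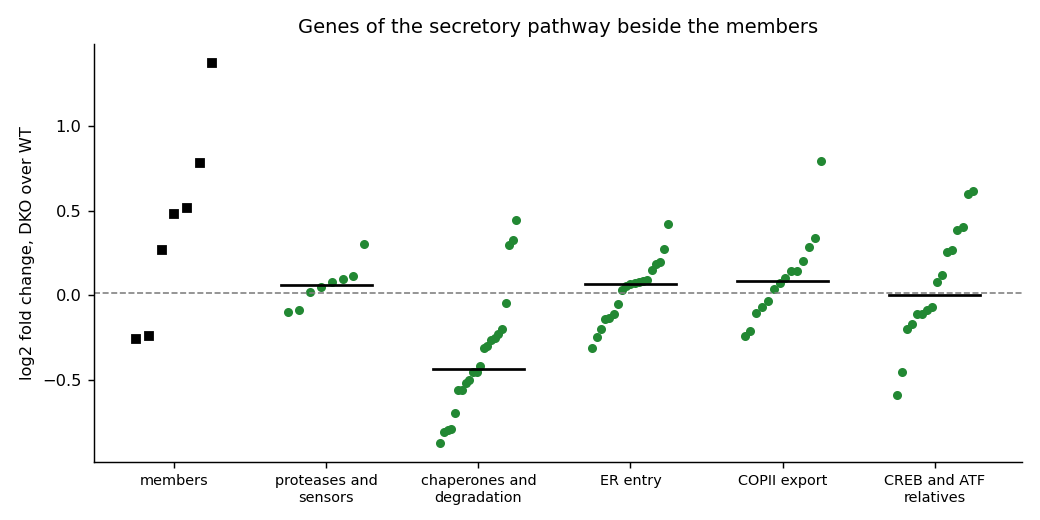
Log2 fold change of DKO over WT (vertical axis) for the 7 measured members (squares) and for every tested gene of the 5 lists (circles), with black lines at list medians and a dashed line at the median of all tested genes, 0.01. The chaperone and degradation list has its median at -0.43, and the other 4 lists have medians between 0.00 and 0.09.

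A list of CREB and ATF relatives and their partners was read beside the family. Nearly all are soluble factors, but NRF1, from *Nfe2l1*, is itself made as a precursor in the ER membrane. All 16 were tested, 8 positive and 8 negative, with a median of 0.00. EdgeR called 0, DESeq2 called 0, and 2 were higher at an unadjusted p under 0.05, where 6.89% of all tested genes were higher. *Atf4*, the factor of the amino acid response, measured 65.3, 90.3, 78.8 and 80.7 CPM in WT and 90.2, 102, 104, 75.3 and 144 CPM in DKO. DKO replicates 1 and 4 lay inside the WT range, and the log2 fold change was 0.39 (SE 0.17, adjusted p = 0.328 by edgeR). *Crtc3*, a CREB coactivator, had the largest value at 0.61 (SE 0.22, adjusted p = 0.233 by edgeR), followed by *Atf5* at 0.60 and *Atf3* at -0.59. *Nfe2l1* and *Nfe2l2*, among the most abundant of the list, had 0.12 and -0.20.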

How the data were processed

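RNA of 4 WT and 5 DKO male SMGs had been sequenced by the authors as unstranded Nextera XT libraries on a HiSeq2500. The submitters' processing notes name STAR 2.5.2a, DESeq2, edgeR and limma and the builds GRCm38, mm10 and GRCh38, with no role or order. The authors deposited raw read counts per gene, a filtered copy of them with 17562 rows, and signal values that are those filtered counts scaled to TMM-normalised CPM. All 158058 scaled values gave back the filtered counts within 0.01 of a whole read (100%), so a count test on them is the test on the filtered table, which called 13 genes. Total counts of 17053747 to 37870519 set the precision for low genes, and intervals for counting error were not needed beside the replicates. That each library is a separate animal follows from its own animal label.

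From the unfiltered table, edgeR 4.0.16 in R 4.3.3 gave the tests: 7 spike-in rows were left out, TMM factors were computed, filterByExpr (minimum count 10, minimum total 15) kept 13842 genes, and the legacy quasi-likelihood fit had genotype as its only term. A gene was called where its Benjamini-Hochberg adjusted p was under 0.05. Standard errors are the log2 fold change over the square root of F. Correlations used log2 CPM with a prior count of 2. DESeq2 1.42.0, which the study's methods name, and limma 3.58.1 served as alternatives, and the tests were tried on simulated data. Other alternatives changed the scaling, the filter, the table, the block and the libraries, 1 choice at a time. Exon lengths and positions came from GENCODE M21 (GRCm38), in which 48349 of 48709 genes matched. Summaries used pandas 2.3.3, scipy 1.17.1 and numpy 2.4.6 under Python 3.11.15. The members, lists, markers, motifs and naming rules were chosen with earlier results of these data known. Named are all 8 members, in each list every called gene with the 3 largest absolute fold changes and the 3 most abundant, the 5 genes most like *Creb3l4* by each measure, and overlapping or neighbouring genes. Marker genes are named where a result needs them. Protein sequences were not used here.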

Additional observations from a re-analysis of the deposited data

Results flagged for a closer look

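Of 66 groups examined, the values of each member and each named list gene in WT and in DKO, 1 held a library far from the rest. *Creb3l4* in WT replicate 2 measured 12.6 CPM, against 7.17 to 7.98 CPM in the other 3 WT libraries, and the gap was 0.851 of the whole range. Chance flags about 1 in 20 such groups. Without that library the log2 fold change of *Creb3l4* was 1.58 in place of 1.37.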

How the results depend on the processing

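Over 133 alternative values of the members' log2 fold changes, 129 moved by less than the SD between replicates and 132 kept their sign. The 4 that moved came from library totals in place of TMM factors, chosen after seeing the data, which shifted the median of all tested genes to -0.28: *Creb3* -0.053, *Creb3l2* 0.17, *Atf6* -0.53 and *Atf6b* -0.56. With 1 library left out the values ran from 1.27 to 1.58 for *Creb3l4*, 0.63 to 0.95 for *Creb3l1*, 0.36 to 0.59 for *Creb3l2*, 0.12 to 0.35 for *Creb3*, 0.30 to 0.65 for *Xbp1*, -0.32 to -0.12 for *Atf6* and -0.31 to -0.20 for *Atf6b*. In the fit with the replicate block 0 genes of any kind were called. Genes called numbered 87 in the edgeR fit, 614 by DESeq2, 148 by limma-voom with sample quality weights, 347 with no filter, 13 with the authors' filter, 357 with library totals (21 higher and 336 lower, against 23 and 64), and 0 to 441 with 1 library left out (441 and 306 when DKO replicate 4 or WT replicate 2 was missing, 2 for DKO replicate 3, 1 for DKO replicate 1 and 0 for each other library). Of the chaperone list, 3 were called by DESeq2, 9 with library totals, 2 with no filter and 0 to 6 with 1 library left out (6 without WT replicate 2). Of the CREB and ATF relatives, 0 to 1 were called with 1 library left out, the 1 without WT replicate 2. No gene of the other 3 lists was called in any alternative. In the order of levels, *Creb3l1* was at rank 3 and *Atf6b* at rank 4 without WT replicate 1 or 3, and all other ranks were the same under the longest transcript, TPM and each library left out. Same-numbered WT and DKO libraries deviated together with r of 0.15, 0.30, 0.07 and 0.01. For WT replicates 1 and 2 the same-numbered DKO library had the highest r. The highest r of WT replicates 3 and 4 was with DKO replicate 5, so the numbers were not taken to pair the animals. The paper calls the WT mice littermates, and no litter was entered in the fit. The replicate block gave *Creb3l4* 1.32 and *Xbp1* 0.33. Depth limits *Creb3l3*, which was at 0 to 3 counts.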
